A study of Mus musculus with 6 samples.

Results

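Endocannabinoids are lipid messengers that are made on demand and act mainly on the cannabinoid receptor CB1. The genes described here are the receptor gene Cnr1 and 6 genes for enzymes that make or break down its ligands, Dagla, Daglb, Mgll, Abhd6, Napepld and Faah. They were chosen by symbol, through the match of the Ensembl identifiers of the count table to GENCODE M21, and make up 7 of the 46078 genes in that table. The rule used no measured value. RNA was sequenced from the striatum of 3 wild-type (WT) mice and 3 transgenic (TG) mice that overexpress Shank3, a scaffold protein of the excitatory postsynapse, fused to the fluorescent protein EGFP. All 6 mice were 12-week-old males of the C57BL/6J strain, and each library came from the dissected striatum of 1 mouse. The promoter that drives the transgene is not given in the sources used here. The study compared the genotypes to find signaling pathways altered by mild Shank3 overexpression, and the question asked here is whether transcripts of the endocannabinoid genes differed between them.

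In the main pathway, a postsynaptic neuron cuts diacylglycerol with a diacylglycerol lipase to release 2-arachidonoylglycerol. This lipid travels backwards across the synapse to CB1 on the axon terminal, where it lowers transmitter release, and is then hydrolysed, mainly by monoacylglycerol lipase in the terminal and partly by ABHD6 on the postsynaptic side. The other main ligand, anandamide, can be released from membrane lipids by NAPE-PLD and is hydrolysed by the amidase FAAH. In the striatum, spiny projection neurons carry much Cnr1 transcript, and the terminals of cortical axons also bear CB1, although the RNA of cortical neurons lies mostly in their cell bodies outside the striatum. CB1 activation on these terminals underlies a form of long-term depression at corticostriatal synapses.

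The 6 enzymes are best told apart by their active sites, so the codons of each are shown as they stand in the coding sequence of the reference (GENCODE M21, GRCm38), with the codons of the motif in capitals and 1 codon on each side in lower case. The first 4 are serine hydrolases with the motif Gly-X-Ser-X-Gly, where X is any residue and the serine attacks the lipid.

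Dagla: gtaGGCCACTCCTTGGGAgca
Daglb: gtgGGGCACAGCCTAGGAgcc
Mgll: ctgGGCCACTCCATGGGCggt
Abhd6: ataGGCACCTCCATGGGTggc

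Counted from the initiator methionine, the serine is residue 472 of 1044 in Dagla (chr19:10254896-10254916, minus strand), 443 of 669 in Daglb (chr5:143494560-143494580, plus strand), 122 of 331 in Mgll (chr6:88808133-88809341, plus strand, split over 2 coding exons) and 148 of 336 in Abhd6 (chr14:8042736-8042756, plus strand). The bare motif is common and occurs in 3979 of 21656 reference proteins (18.4%). The narrower form shared by these 4, with His or Thr before the serine and Leu or Met after it, occurs in 79 (0.365%). Faah belongs to another family, the amidases, and Napepld is a metal-dependent phospholipase, so their sites look different.

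Faah: ccaGGAGGTTCCTCAGGGGGTgag
Napepld: agtCACAACCACTACGACCACcta

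The Faah codons (chr4:116005122-116005145, minus strand) spell the run of glycines and serines typical of amidases, which holds serine 217 of the catalytic triad in a protein of 579 residues. The same run of residues occurs in 35 reference proteins (0.162%). The Napepld codons (chr5:21675823-21675846, minus strand) spell the zinc-binding form His-X-His-X-Asp-His from residue 185 of 396, found in 36 proteins (0.166%). Over whole proteins, Dagla and Daglb shared 37.3% of 643 aligned residues, and Mgll and Abhd6 shared 26.2% of 286.

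The deposited values are read counts per gene divided by a size factor for each library and are called normalized read counts here. The reads recovered from them summed to between 27689589 and 36647626 per library. Shank3 itself, the check of the genotype labels, lay at 29891, 28309 and 26044 normalized read counts in the TG libraries and at 13807, 12918 and 13865 in WT (log2 fold change 1.05, SE 0.06, limma adjusted p = 7.04e-05). This difference includes reads of the transgene, which the table does not separate from the endogenous gene. The test was limma on log2(normalized read count + 1) across 17605 genes whose mean reached 10, at a Benjamini-Hochberg adjusted p of 0.05. Fold changes are TG against WT on that scale. Choroid plexus RNA was much higher in TG replicate 1 than elsewhere, with a sum of 8 marker genes of 14937 against 288 to 1433 in the other 5 libraries, and its part in any result was not tested. The sum of 6 microglia markers was lower in TG (9866 to 10746) than in WT (10803 to 11196), with 0 of the 6 markers called. Among single genes, 10.1% of all tested had groups that did not overlap. In log2 fold change 6 of the 6 markers were below 0, against 8936 of all 17605 genes. An unadjusted limma p under 0.05 was reached by 2 of them, against 4.31% of all genes. The part of microglia in any result was not tested. Striatal spiny neuron markers were abundant in every library, with Pde10a, the phosphodiesterase of these neurons, at a mean of 39629.

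None of the 7 endocannabinoid genes differed between the genotypes beyond the spread between mice. By limma, 0 of 7 passed the threshold, against 1 of all 17605 genes tested (0.00568%), and 0 of 7 had an unadjusted p under 0.05, against 758 genes (4.31%). DESeq2, edgeR and limma-voom on the recovered reads also called 0 of 7, with 0 at an unadjusted p under 0.05 by each, against 2.45%, 4.38% and 4.24% of all genes in that order. The log2 fold changes ran from -0.06 to 0.04 with a median of -0.02, beside a median of -0.0018 over all genes, and 2 were above 0 and 5 below. In 0 of 7 genes did the 3 TG values all lie above or all below the 3 WT values, which happened in 10.1% of all genes. Each of the 7 differences was smaller than the gene's own SD within genotypes, as for 70.8% of all genes. Across the 7 genes the 95% intervals of limma reached from a fold of 0.848 to one of 1.218. Their variance is drawn toward the trend over all genes. For genes more variable than that trend, such as Cnr1 and Faah, they are therefore narrower than the gene's own spread alone would give.

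**Figure D1:**
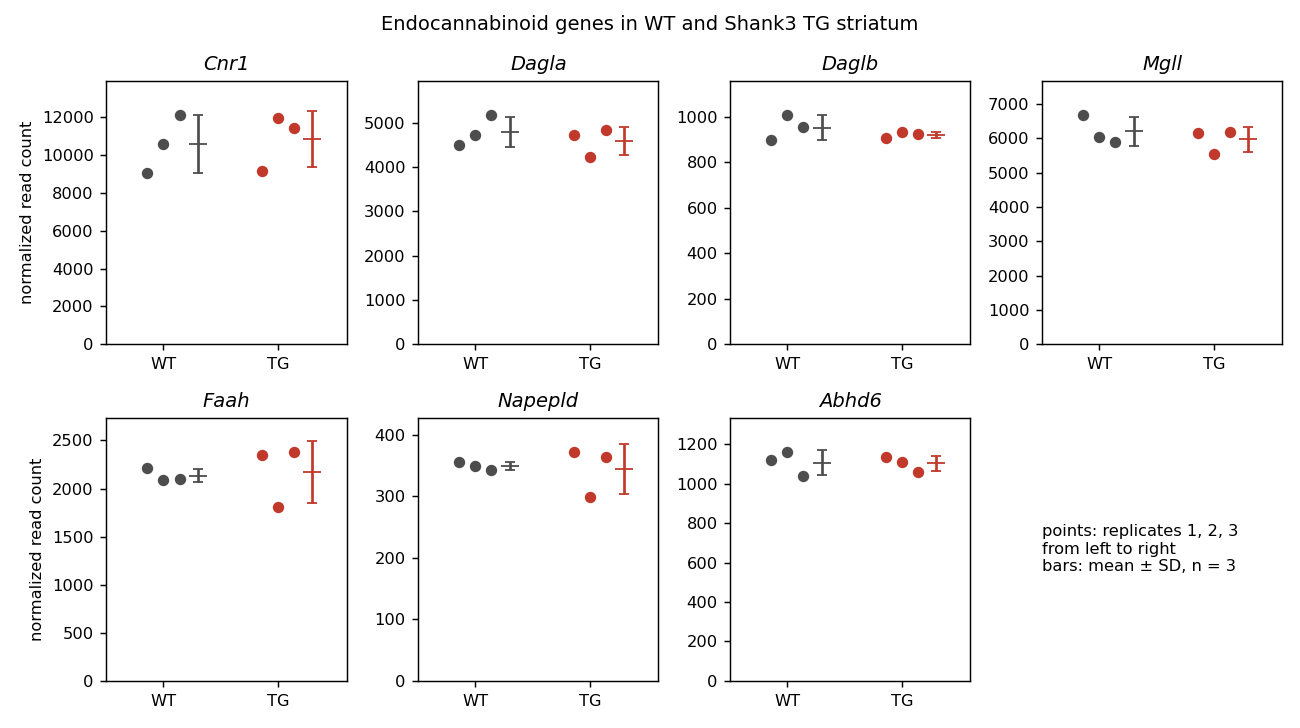
Normalized read count of each of the 7 endocannabinoid genes in each library (points, 3 WT and 3 TG mice), with the genotype mean ± SD beside them. TG and WT points overlap in all 7 genes, and Cnr1 is spread between 9071 and 12105.

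Cnr1 (ENSMUSG00000044288, GRCm38 chr4:33924593-33948831, plus strand) encodes CB1, a receptor of 473 residues that couples to inhibitory G proteins. It was the most abundant of the 7 and also the most variable. In order of replicate number, the TG libraries gave 9159, 11960 and 11413 normalized read counts and the WT libraries 9071, 10567 and 12105. TG replicate 1 and WT replicate 1 were the lowest 2 libraries and WT replicate 3 was the highest, so each genotype covered nearly the whole range. The means were 10844 ± 1485 in TG and 10581 ± 1517 in WT (SD, n = 3 each), a log2 fold change of 0.04 (SE 0.11, 95% interval -0.21 to 0.28, limma adjusted p = 0.989). At least 7926 reads lay behind each value, for which counting alone gives an error of 1.12%, while the libraries differed by up to 1.334-fold. Its SD within genotypes, 0.21 on the log2 scale, was above that of 97.7% of the 8728 genes whose mean reached 500. Folds between 0.863 and 1.218 lay inside the limma interval for Cnr1, which is narrower than its own SD alone would give.

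Dagla (ENSMUSG00000035735, chr19:10245265-10304877, minus strand) encodes the lipase that makes most of the 2-arachidonoylglycerol released at adult brain synapses. It was measured at 4731, 4237 and 4832 normalized read counts in TG and at 4504, 4724 and 5173 in WT. The lowest library was a TG one and the highest a WT one, and between them WT replicates 1 and 2 lay below TG replicates 1 and 3, so the groups overlapped. The log2 fold change was -0.06 (SE 0.07, 95% interval -0.21 to 0.08, limma adjusted p = 0.971), the difference farthest from 0 among the 7 genes. Its paralog Daglb (ENSMUSG00000039206, chr5:143464584-143505942, plus strand), a lipase known best from microglia and macrophages, was measured at 909, 933 and 924 in TG and at 897, 1007 and 954 in WT. The 3 TG libraries lay within the WT range and close together (922 ± 12.3 against 953 ± 55.0, SD, n = 3 each). Without WT replicate 1 all 3 lay below both remaining WT libraries, a gap seen in 20.1% of all genes in the same 5 libraries. The log2 fold change of Daglb was -0.05 (SE 0.06, 95% interval -0.18 to 0.09, limma adjusted p = 0.973). Of the exon bases of Daglb, 2309 of 9567 (24.1%) also belong to Rac1, a highly expressed gene on the opposite strand (mean 7279 normalized read counts). Whether the counting used strand is not given in the sources used here, so reads from the shared bases cannot be told apart.

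Mgll (ENSMUSG00000033174, chr6:88724412-88828360, plus strand) encodes monoacylglycerol lipase, which ends most 2-arachidonoylglycerol signaling and feeds its arachidonic acid into prostaglandin synthesis. The TG libraries gave 6158, 5552 and 6199 normalized read counts and the WT libraries 6674, 6036 and 5903. WT replicate 1 was the highest and TG replicate 2 the lowest, and between them WT replicates 2 and 3 lay below TG replicates 1 and 3, so the groups overlapped. The log2 fold change was -0.06 (SE 0.06, 95% interval -0.19 to 0.08, limma adjusted p = 0.971). An antisense gene, Gm26588, shares 167 of the 5077 exon bases of Mgll (3.29%), and its mean was 60.3. Abhd6 (ENSMUSG00000025277, chr14:8002902-8056763, plus strand), the postsynaptic monoacylglycerol hydrolase, was measured at 1136, 1113 and 1059 in TG and at 1120.5, 1161 and 1039 in WT. The genotypes covered almost the same range. Its log2 fold change was the smallest of the 7, at -0.0041 (SE 0.06, 95% interval -0.14 to 0.13, limma adjusted p = 0.997), and the interval corresponds to folds between 0.909 and 1.094.

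Napepld (ENSMUSG00000044968, chr5:21662901-21701396, minus strand), which encodes the phospholipase that releases anandamide and related N-acylethanolamines, was the least abundant of the 7. It was measured at 372, 298 and 364 normalized read counts in TG and at 355, 349 and 343 in WT. The WT libraries lay close together (349 ± 6.08), while the TG libraries (345 ± 40.6, SD, n = 3 each) spread to both sides of them, with TG replicate 2 the lowest of the 6. The log2 fold change was -0.02 (SE 0.10, 95% interval -0.24 to 0.19, limma adjusted p = 0.990). Between 265 and 433 reads lay behind each Napepld value, and at the lowest of these counting alone gives an error of 6.14%. Faah (ENSMUSG00000034171, chr4:115967145-116017926, minus strand), the amidase that ends anandamide signaling, showed the same layout, with 2346, 1805 and 2379 in TG and 2209, 2085 and 2104 in WT. TG replicates 1 and 3 were above all WT libraries and TG replicate 2 below all of them. The log2 fold change of Faah was 0.02 (SE 0.09, 95% interval -0.19 to 0.22, limma adjusted p = 0.991). Its SD within genotypes was above that of 94.5% of the 8728 genes whose mean reached 500. Without TG replicate 2, both Faah and Napepld lay higher in the remaining 2 TG libraries than in the 3 WT libraries, with log2 fold changes of 0.15 and 0.077. Such a gap was seen in 21.2% of all genes in the same 5 libraries, and neither gene was called (smallest adjusted p over all alternatives 0.796 for Faah and 0.862 for Napepld).

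**Figure D2:**
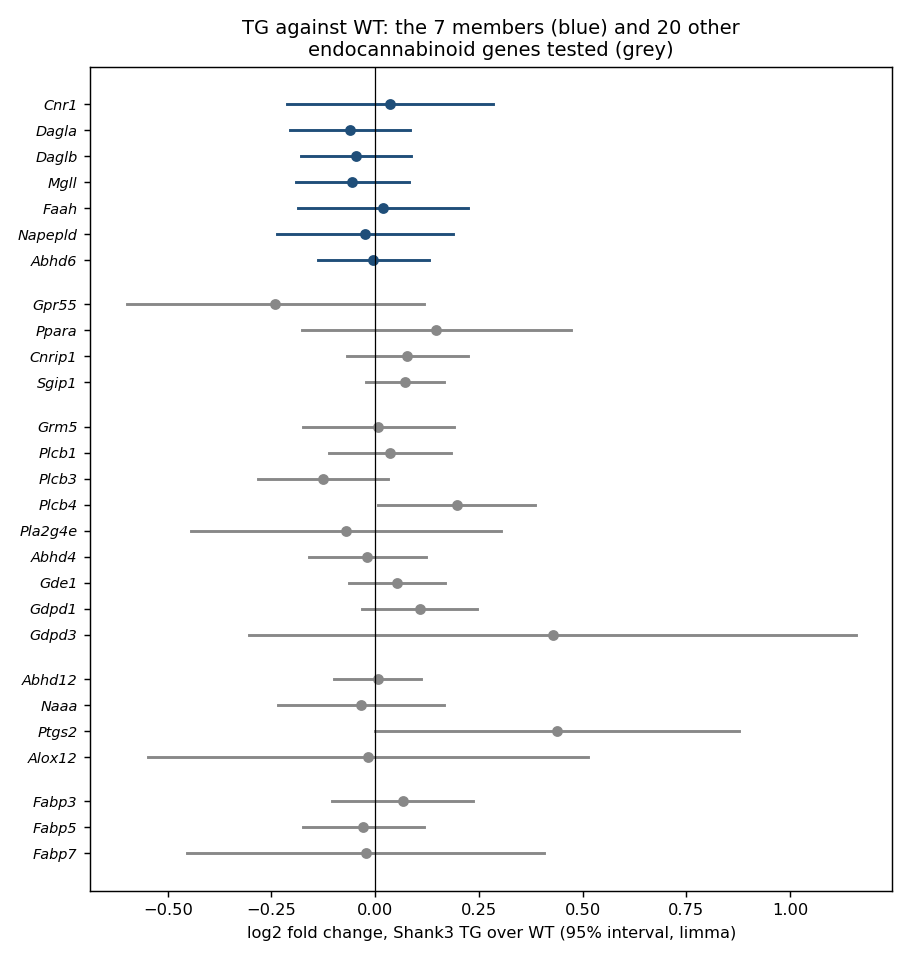
Log2 fold change, TG against WT, of the 7 genes (blue) and of the 20 further endocannabinoid genes tested (grey, described at the end), as points with 95% intervals from limma (n = 3 mice each). All 7 blue intervals include 0, the widest being that of Cnr1 from -0.21 to 0.28, and of the grey ones that of Plcb4 lies above 0.

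Exact two-sided permutation tests over the 6 libraries gave p from 0.5 to 1.0 for the 7 genes, where the smallest p that 3 against 3 libraries can give is 0.1. Since the RNA came from whole tissue, fewer cells of a type and less RNA per cell cannot be told apart in any of these values. The sources used here name no litter for these mice, so each test takes the mice as independent. The limma p-values set a difference against the spread between the mice as sampled, drawn toward the trend over all genes.

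Levels can be set side by side between genes once they are divided by length. Per kilobase of exon, and averaged over the 6 libraries, Cnr1 was at 1662 ± 210 normalized read counts (SD, n = 6), Mgll at 1199 ± 72.8, Dagla at 818 ± 54.7, Abhd6 at 467 ± 19.7, Faah at 275 ± 26.7, Daglb at 98.0 ± 4.13 and Napepld at 87.6 ± 6.59. This order was the same in 6 of 6 libraries. Every neighbouring pair was clear of each other over the libraries except Daglb and Napepld, whose ranges touched (lowest Daglb library 93.8, highest Napepld library 93.9), so their order was not separated by the spread at this length. The level of Daglb depended on the length used. Per kilobase of its longest transcript Daglb was at 192, and its whole count divided by the bases that no other gene covers gave 129. With either length its lowest library (184 and 124) was above the highest Napepld library (94.0 and 93.9). Both lengths divide the whole Daglb count, which may hold reads from the bases shared with Rac1, so neither settles the order of Daglb and Napepld. The receptor and the main enzymes of 2-arachidonoylglycerol stood high among all genes, at percentile 95.9 for Cnr1, 93.7 for Mgll and 90.0 for Dagla among 17519 genes. The anandamide enzymes stood lower, with Faah at percentile 70.5 and Napepld at 43.1, next to Daglb at 45.4, or at 54.2 when longest transcripts were used for all genes. Abhd6 was at 81.6.

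**Figure D3:**
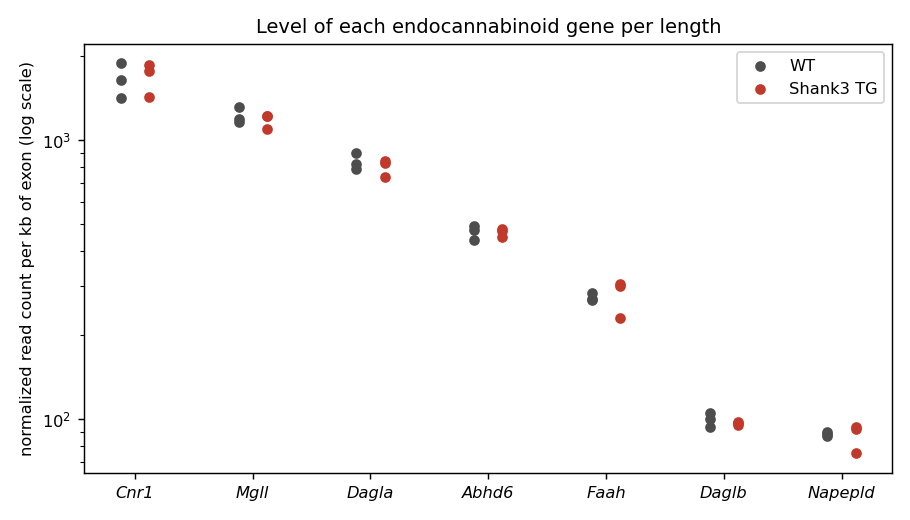
Normalized read count per kilobase of exon of the 7 endocannabinoid genes (log axis), 1 point per library, WT and TG. The genes fall from Cnr1 at a mean of 1662 to Napepld at 87.6, and only the points of Daglb and Napepld touch.

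The balance of enzymes within a library was described by ratios of levels per kilobase. The log2 ratio of the diacylglycerol lipases (Dagla and Daglb) to the monoacylglycerol hydrolases (Mgll and Abhd6) was -0.88, -0.91 and -0.83 in TG and -1.03, -0.86 and -0.68 in WT. The WT libraries spread to both sides of the TG libraries, and the difference of means was -0.02 (-0.87 ± 0.04 in TG and -0.85 ± 0.17 in WT, SD, n = 3 each). Mgll made up 71.6% ± 1.62 of the summed hydrolases in TG and 72.3% ± 1.39 in WT, and Dagla made up 89.2% ± 0.783 of the summed lipases in TG and 89.3% ± 0.689 in WT. For anandamide, the log2 ratio of Napepld to Faah was -1.67 ± 0.05 in TG and -1.63 ± 0.03 in WT, a difference of -0.04 with overlapping libraries. For all of these ratios and shares, the genotypes overlapped.

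**Figure D4:**
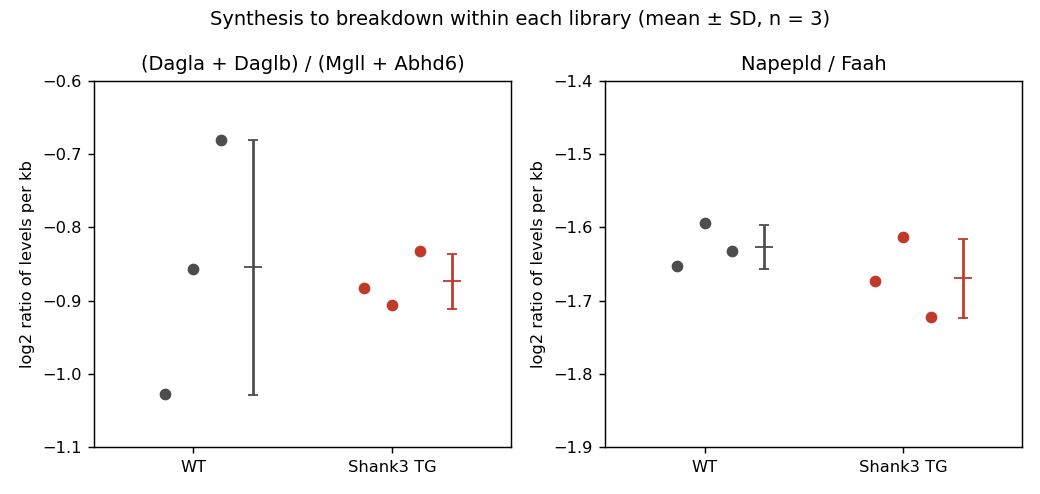
Log2 ratio of summed Dagla and Daglb to summed Mgll and Abhd6 (left) and of Napepld to Faah (right), from levels per kilobase, with 1 point per library and the genotype mean ± SD beside them. In both panels the WT and TG points overlap, and the lipase to hydrolase ratio of WT runs from -1.03 to -0.68.

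Neuronal markers also varied between the libraries, and the endocannabinoid genes were set beside them. The sum of 10 spiny neuron markers ran from 127810 to 178339 in TG and from 154427 to 178342 in WT, with TG replicate 1 the lowest. In log2 fold change 9 of the 10 markers were below 0, against 8936 of all 17605 genes, and 0 were called. The sum of 8 cortical excitatory neuron markers ran from 63193 to 78303 in TG and from 72850 to 80168 in WT, with TG replicate 2 the lowest and 4 of 8 below 0. Pearson's r was computed for each of the 7 genes with each of the 2 sums, which makes 14 relations that were chosen after the values had been seen, with exact permutation p-values adjusted over the 14. The smallest adjusted p came from 2 relations. The first was that of Mgll with the cortical markers (r = 0.89, p = 0.00833, adjusted p = 0.0583, rho = 0.943, p = 0.0167, adjusted p = 0.117, n = 6, exact permutation), and r was 0.934 without TG replicate 2 and WT replicate 3, the 2 libraries farthest from the median. The other was that of Napepld with the spiny neuron markers (r = -0.765, p = 0.00556, adjusted p = 0.0583, rho = -0.943, p = 0.0167, adjusted p = 0.117, n = 6, exact permutation), and r was -0.981 without TG replicate 1 and WT replicate 3. For Cnr1, the most variable gene, the relation with the spiny neuron markers was positive (r = 0.766, p = 0.0861, adjusted p = 0.172, rho = 0.714, p = 0.136, adjusted p = 0.212, n = 6, exact permutation), where r was 0.503 without the same 2 libraries. That with the cortical markers was negative (r = -0.692, p = 0.0167, adjusted p = 0.0778, rho = -0.886, p = 0.0333, adjusted p = 0.156, n = 6, exact permutation), where r was -0.811 without TG replicate 2 and WT replicate 3. Faah and Napepld had r of 0.872 and 0.946 with the cortical markers, which rested on TG replicate 2 and WT replicate 3, since without these r was -0.01 and -0.03. With the spiny neuron markers, Faah had a negative relation (r = -0.777, p = 0.0389, adjusted p = 0.124, rho = -0.771, p = 0.103, adjusted p = 0.212, n = 6, exact permutation), and r was -0.993 without TG replicate 1 and WT replicate 3. Each r without 2 libraries rests on only the 4 that remain and can move far. For Dagla it went from 0.455 to -0.917 with the cortical markers and from -0.065 to -0.842 with the spiny neuron markers. In the spiny neuron sum, WT replicate 3 (178342) was left out and TG replicate 2 (178339) was kept, although the 2 were nearly equal. TG replicate 2 was the lowest library for Faah and Napepld. Of the 14 relations, 0 passed an adjusted p of 0.05. Computed on deviations from the genotype means, r with the cortical markers was 0.875 for Mgll, 0.957 for Faah, 0.971 for Napepld and -0.702 for Cnr1. With the spiny neuron markers it was 0.875 for Cnr1, -0.812 for Faah and -0.881 for Napepld, so each of these relations had the same sign within genotypes. Whether the composition of the dissected tissue plays a part in the spread of these genes was not tested.

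**Figure D5:**
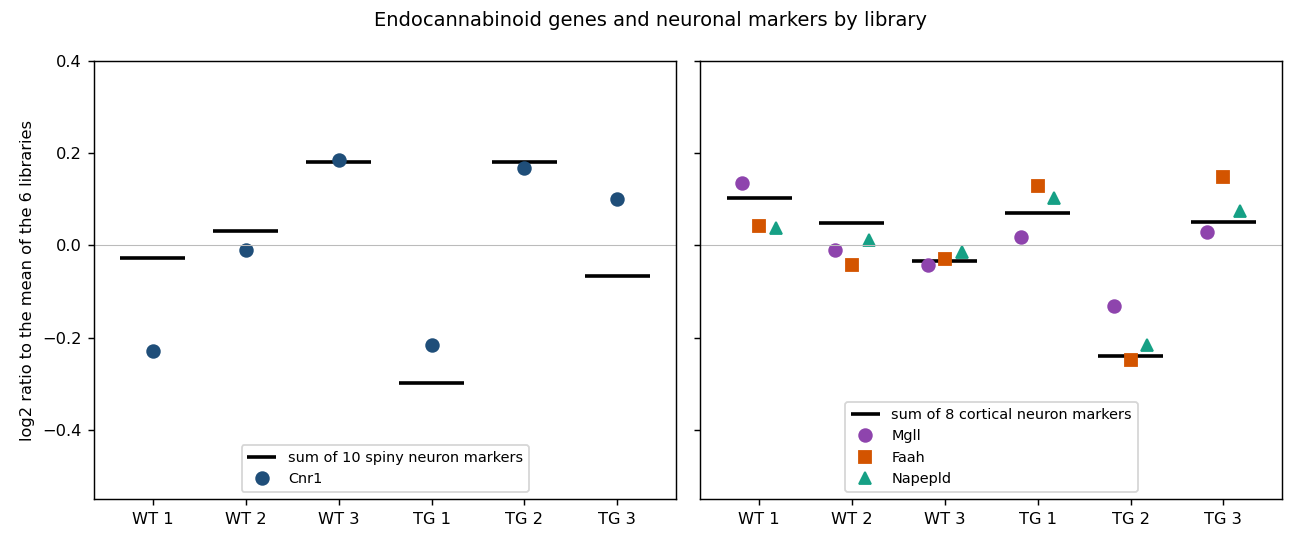
Log2 ratio of each library to the mean of the 6 libraries, for Cnr1 beside the sum of 10 spiny neuron markers (left) and for Mgll, Faah and Napepld beside the sum of 8 cortical neuron markers (right), with marker sums as black bars. TG replicate 2 has the lowest cortical sum (63193) and the lowest Faah, Napepld and Mgll.

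The genes whose pattern over the 6 libraries was most like that of Cnr1, by Pearson's r of log2 values among 8727 other genes whose mean reached 500, were Atg14 (r = 0.998, rho = 1.0), Ttll4 (r = 0.995, rho = 0.943) and Atxn7 (r = 0.995, rho = 0.943). Atg14 ran from 706 in WT replicate 1 to 856 in WT replicate 3, the same extremes as Cnr1. An r over 0.9 was reached by 284 genes (3.25%), so a likeness of this degree was shared by many genes over so few libraries, and it is given as a description only.

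Of 24 further endocannabinoid genes, namely other receptors and CB1 partners, other synthetic and degrading enzymes and intracellular carriers, 20 had a mean of 10 or more and were tested. By limma 0 of 20 were called, 12 were above 0 and 8 below, and the median log2 fold change was 0.02. At an unadjusted p under 0.05 there was 1 gene by limma, 2 by DESeq2, 2 by edgeR and 1 by limma-voom, against 2.45% to 4.38% of all genes. The gene counted by limma was Plcb4, a phospholipase C that makes the diacylglycerol from which 2-arachidonoylglycerol is cut. It was measured at 2010.4, 1747 and 2169 normalized read counts in TG and at 1626, 1902 and 1637 in WT (log2 fold change 0.20, SE 0.09, limma adjusted p = 0.971, exact permutation p = 0.2). TG replicate 2 lay below WT replicate 2, so the groups overlapped.

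The remaining genes with the smallest p were Ptgs2 and Sgip1 above 0 and Plcb3, Gpr55 and Fabp5 below. Ptgs2, the cyclooxygenase COX-2, which can oxidise 2-arachidonoylglycerol, was at 531, 301 and 308 in TG and at 258, 238 and 322 in WT. TG replicate 1 stood above the other 5 libraries. The log2 fold change of Ptgs2 was 0.44 (SE 0.20, limma adjusted p = 0.971, exact permutation p = 0.3), and without TG replicate 1 it was 0.17. Sgip1, which binds CB1 and slows its internalisation, was the 1 gene of the 20 whose groups did not overlap, against 10.1% of all genes, with 5612, 5715 and 5596 in TG and 5487, 5292 and 5318 in WT. That is a small difference of 0.07 on the log2 scale (SE 0.04, 95% interval -0.02 to 0.17, limma adjusted p = 0.971). The SD of Sgip1 within genotypes was 0.023, above that of only 2.5% of the 8728 genes whose mean reached 500. Its difference was 3.12 times that SD. With the variance drawn toward the trend, the limma interval is wider here than the gene's own spread alone would give.

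Plcb3, another phospholipase C, was at 743, 676 and 630.0 in TG and at 746, 732 and 753 in WT, where 2 of the 3 TG libraries lay well below WT (log2 fold change -0.13, SE 0.07, limma adjusted p = 0.971). Gpr55, a receptor for lysophosphatidylinositol that also responds to some cannabinoids, was at 101, 132 and 110.0 in TG and at 112, 165 and 132 in WT (log2 fold change -0.24, SE 0.16, limma adjusted p = 0.971). The groups overlapped for both. Fabp5, a carrier of fatty acids and anandamide inside the cell, had a log2 fold change of -0.03 (SE 0.07).

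Genes just upstream and beside CB1 showed the same lack of a called difference. Grm5, the glutamate receptor mGluR5 whose activation drives diacylglycerol formation and whose protein is linked to Shank3 through Homer, had a log2 fold change of 0.0075 (SE 0.08, 95% interval -0.17 to 0.19). Abhd12, a further hydrolase of monoacylglycerols and of lysophosphatidylserine, had one of 0.0056 (SE 0.05), and Cnrip1, which binds the tail of CB1, one of 0.08 (SE 0.07), neither of them called. The receptor genes Cnr2, Gpr18, Gpr119 and Trpv1 had a mean under 10 and stayed out of the main test. With no filter on low values 0 of these 4 were called by limma, with adjusted p from 0.904 to 0.958. Cnr2, the CB2 receptor of immune cells, had between 3 and 9 reads per library, and Trpv1, a cation channel that anandamide opens, between 2 and 8, so no difference in them was detectable at this depth.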

How the data were processed

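RNA was extracted from the striatum of each mouse, made into libraries with a TruSeq RNA Sample Prep Kit v2 and sequenced in paired ends on an Illumina instrument, all by a service provider. Per the labels, reads were trimmed with Trimmomatic 0.35, aligned to GRCm38 with TopHat2 2.1.0, counted with HTSeq and normalized with DESeq2. The deposited values are a signal, namely the read count of a gene divided by the DESeq2 size factor of its library. The strand setting and annotation release of the counting are not given in the sources used here.

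The deposited values are not whole reads, but dividing by each library's smallest value above 0 gave whole reads within 0.01 for 100% of values. Identifiers were matched to GENCODE M21 for 45229 of 46078 genes, and 29430 genes had a read in some library. No library was left out. The main test was limma 3.58.1 (trend) in R 4.3.3 on log2(value + 1), across 17605 genes whose mean reached 10, with all 6 libraries, no covariate and Benjamini-Hochberg adjustment at 0.05. It was tested on simulated data whose changes were larger than any of the endocannabinoid genes in the main test. That check therefore does not bear on the power to call differences as small as theirs.

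Alternatives were DESeq2 1.42.0 without and with a prior on the fold change (the latter with an empirical null from the central 75% of statistics, in place of the fdrtool package), edgeR 4.0.16 quasi-likelihood and limma-voom on the recovered reads, TMM or library totals for scaling, no filter or a minimum mean of 50, a pseudocount of 0.5 or 5, a threshold of 0.1, each library left out, and the replicate number as a block. A covariate for cortical against spiny neuron markers and lengths without bases of other genes were added after seeing the data, as were correlations with marker sums. The edgeR test called 1 gene of all, limma-voom 1 and DESeq2 without a prior 7. Levels per kilobase used the union of a gene's exons. Ranks and correlations used scipy 1.17.1.

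Named genes were the 7 endocannabinoid genes, Shank3, the 3 further pathway genes with the smallest p in each direction and 6 named for their role, the 3 most like Cnr1 and the most abundant marker of a list. Members, lists and tests were chosen with earlier results of these data known. The marker lists for interneurons (7 of 8 symbols matched), astrocytes and oligodendrocytes gave 0 called genes and overlapping sums (interneurons 11661 to 12936 in TG and 11864 to 13617 in WT, astrocytes 129644 to 136478 and 128179 to 135287, oligodendrocytes 231906 to 241086 and 235395 to 265819). Below 0 in log2 fold change were 6 of 7 interneuron, 3 of 7 astrocyte and 4 of 6 oligodendrocyte markers, against 8936 of all 17605 genes.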

Additional observations from a re-analysis of the deposited data

How the results depend on the processing

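Under the 19 alternatives, 0 of the 7 genes and 0 of the further endocannabinoid genes were called, against 1 to 15 of all genes tested. The 15 of 17605 came from DESeq2 with a prior. The smallest adjusted p of any of the 7 was 0.722 (Cnr1 without TG replicate 1) and the smallest unadjusted p was 0.0209 (Faah without TG replicate 2). Without TG replicate 2, 1025 of 17607 genes had an unadjusted limma p under 0.05. Dagla, Daglb and Mgll stayed below 0 in log2 fold change in 18 of 18 alternatives, which reuse the same libraries. With a library left out, these log2 fold changes came as near 0 as -0.0033, -0.0055 and -0.0017 in that order. The main intervals of these genes include 0, so the signs are not settled for them. When each library was left out in turn, log2 fold changes ran from -0.070 to 0.15 for Cnr1, -0.051 to 0.15 for Faah, -0.082 to 0.077 for Napepld and -0.049 to 0.031 for Abhd6, so their signs are not settled. Faah was at -0.002 with the marker covariate and Abhd6 at 0.0011 with library totals. The count of the 7 genes whose groups did not overlap ran from 0 to 2 over these fits, at 2 without TG replicate 2 (Faah and Napepld, against 21.2% of all genes) and 1 without WT replicate 1 (Daglb, against 20.1%). The difference in the log2 lipase to hydrolase ratio ran from -0.11 to 0.07. With the longest transcript as length, levels per kilobase were 1525 for Mgll, 496 for Abhd6, 389 for Faah and 192 for Daglb. The whole Daglb count over the bases that no other gene covers gave 129. The order of the 7 was unchanged with either length.

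With the replicate number as a block (replicate block), 0 of the 7 genes were called and the number of all genes at an unadjusted p under 0.05 was 1024 against 758. Deviations of same-numbered libraries correlated at 0.05, 0.02 and 0.09, all under 0.1, and those of other pairs at -0.12 to 0.08. Of the 3 TG libraries, 1 correlated best with its own number. These values do not show that the numbers pair the mice, and with 3 libraries per genotype they cannot exclude it. With 3 mice per genotype, the limma intervals span folds from 0.848 to 1.218 over the 7 genes, under a variance drawn toward that of all genes. Depth limits Cnr2, Gpr18, Gpr119 and Trpv1.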
